A study of Mus musculus with 45 samples.

Results

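Genes of the germ line were followed in mouse induced pluripotent stem cell (iPSC) lines: Dazl, Ddx4, Tex101, Mov10l1, Taf7l, Sycp3 and Stk31. They were chosen by symbol with earlier results of these data known, and every array probe set annotated to one of them was used. This gave 9 probe sets of 7 genes, out of 22626 probe sets tested in each of 2 expression tables. The tables name 11807 and 12393 genes. Mael, the eighth symbol sought, has no probe set in the probe lists used here and was dropped. Dazl and Stk31 have 2 probe sets each, and 0 probe sets list a member together with another symbol.

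The iPSC lines came from a secondary reprogramming system, in which the cells already carry the reprogramming factors. RNA was measured on 45 arrays in 15 groups of 3 clones. Mouse 2 gave lines of 4 origins, each at passages 4, 10 and 16: fibroblasts of the tail tip (TTF), splenic B cells, T cells, and bone marrow granulocytes (Gra). Mouse 1 gave Gra lines at passages 4 and 16 and, at passage 6 only, lines whose origin was the skeletal muscle precursor (SMP). Every culture had 15% FBS, LIF and a layer of irradiated mouse embryonic fibroblasts as feeders. Before RNA extraction the trypsinized cells were left on a plate for 45 minutes so that feeders settled out. One table holds the 33 arrays of passages 4, 6 and 16, and the other holds the 12 arrays of passage 10 on a scale of its own. No group holds clones of more than 1 mouse, so the p-values reflect how far clones vary, not how far animals vary. A lower value in a culture can come from fewer cells with the transcript or from less transcript per cell, and these arrays cannot tell them apart, here and in all results that follow.

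Most members are silent in somatic cells and are switched on as germ cells develop. Their promoters often hold many CpG sites, which are methylated by the DNMT3 enzymes, and the non-canonical Polycomb complex PRC1.6 represses many germline genes in pluripotent cells. This complex contains E2F6 and the MGA and MAX proteins, which recognise an E2F motif and the E-box CACGTG.

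The promoter bases before 5 members are shown because the results turn on these genes and because they carry, or lack, the motifs of that complex. They are from RefSeq (GRCm38.p6), are written 5′ to 3′ along the gene's strand, end before the annotated gene, and have CACGTG in capitals. Those of Sycp3 and Stk31 are shortened to 40 bases around a CACGTG.
Tex101, chr7:24672051-24672300, minus strand: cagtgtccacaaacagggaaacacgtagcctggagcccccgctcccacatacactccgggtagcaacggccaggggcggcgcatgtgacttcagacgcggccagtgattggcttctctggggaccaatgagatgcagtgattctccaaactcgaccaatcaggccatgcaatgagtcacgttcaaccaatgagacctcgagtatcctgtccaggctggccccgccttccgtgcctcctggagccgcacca
Mov10l1, chr15:88982744-88982890, plus strand: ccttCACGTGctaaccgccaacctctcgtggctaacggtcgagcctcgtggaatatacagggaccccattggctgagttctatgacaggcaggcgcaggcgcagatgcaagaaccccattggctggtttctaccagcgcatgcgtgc
Taf7l, chrX:134476506-134476740, minus strand: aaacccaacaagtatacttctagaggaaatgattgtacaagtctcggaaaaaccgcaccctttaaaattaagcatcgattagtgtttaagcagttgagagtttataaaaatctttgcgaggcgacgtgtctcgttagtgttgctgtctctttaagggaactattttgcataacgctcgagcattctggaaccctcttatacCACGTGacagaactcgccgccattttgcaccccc
Sycp3, chr10:88459527-88459566, plus strand: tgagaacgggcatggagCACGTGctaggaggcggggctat
Stk31, chr6:49395466-49395505, plus strand: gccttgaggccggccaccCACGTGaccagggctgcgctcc

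Motifs were searched on both strands of the 250 bases before each RefSeq transcript start. CACGTG, which reads the same on both strands, was in the windows of 5 of the 7 genes, or 71.4%: Ddx4, Mov10l1, Taf7l, Sycp3 and Stk31. Among all 32851 promoters listed, 6.02% hold it. The E2F heptamer TTCCCGC or its reverse GCGGGAA was in the windows of Ddx4 and Sycp3 and in 3.82% of all promoters, and it did not overlap CACGTG. The longer palindrome TCACGTGA, which contains CACGTG, was in 0 of the 7 and in 0.785% of all. Windows of Dazl and Tex101 held none of these letters. All 7 genes had more CpG than the median promoter, which has 6: Sycp3 had 12, Tex101 and Taf7l 14 each, Mov10l1 19, Dazl 20, Stk31 21 and 26 in its 2 windows, and Ddx4 31. A match is a description of these letters and says nothing about binding.

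Array values are log2 units, so a difference of 1 is a doubling. Levels of different probe sets are not comparable with each other, and the files used here carry no call of presence. In the table of 33 arrays the median probe set lay at 6.54 and the 25th percentile at 4.50. Tex101 was dim, with a table mean of 4.91, and Sycp3 was bright, with 9.77. Arrays correlated with their group mates at a median r of 0.991 over all probe sets. Clone 3 of the granulocyte lines of mouse 2 at passage 16 stood apart with 0.921. The next lowest, 0.955 and 0.960, were the other clones of that group, whose values include their correlation with clone 3. TTF clones at passage 4 had 0.982, 0.977 and 0.982. Where a call on a member rests on the granulocyte array that stands apart, the value without it is also given. More probe sets pass in comparisons outside its group when that array is left out: 3169 rather than 2266 were then higher in TTF lines at passage 4 than in the other origins. At passage 10 these correlations lay between 0.995 and 0.998. Pluripotency genes (14 measured) had mean levels from 10.71 to 11.29 in the groups of the 33-array table, and no group lacked them.

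**Figure D1:**
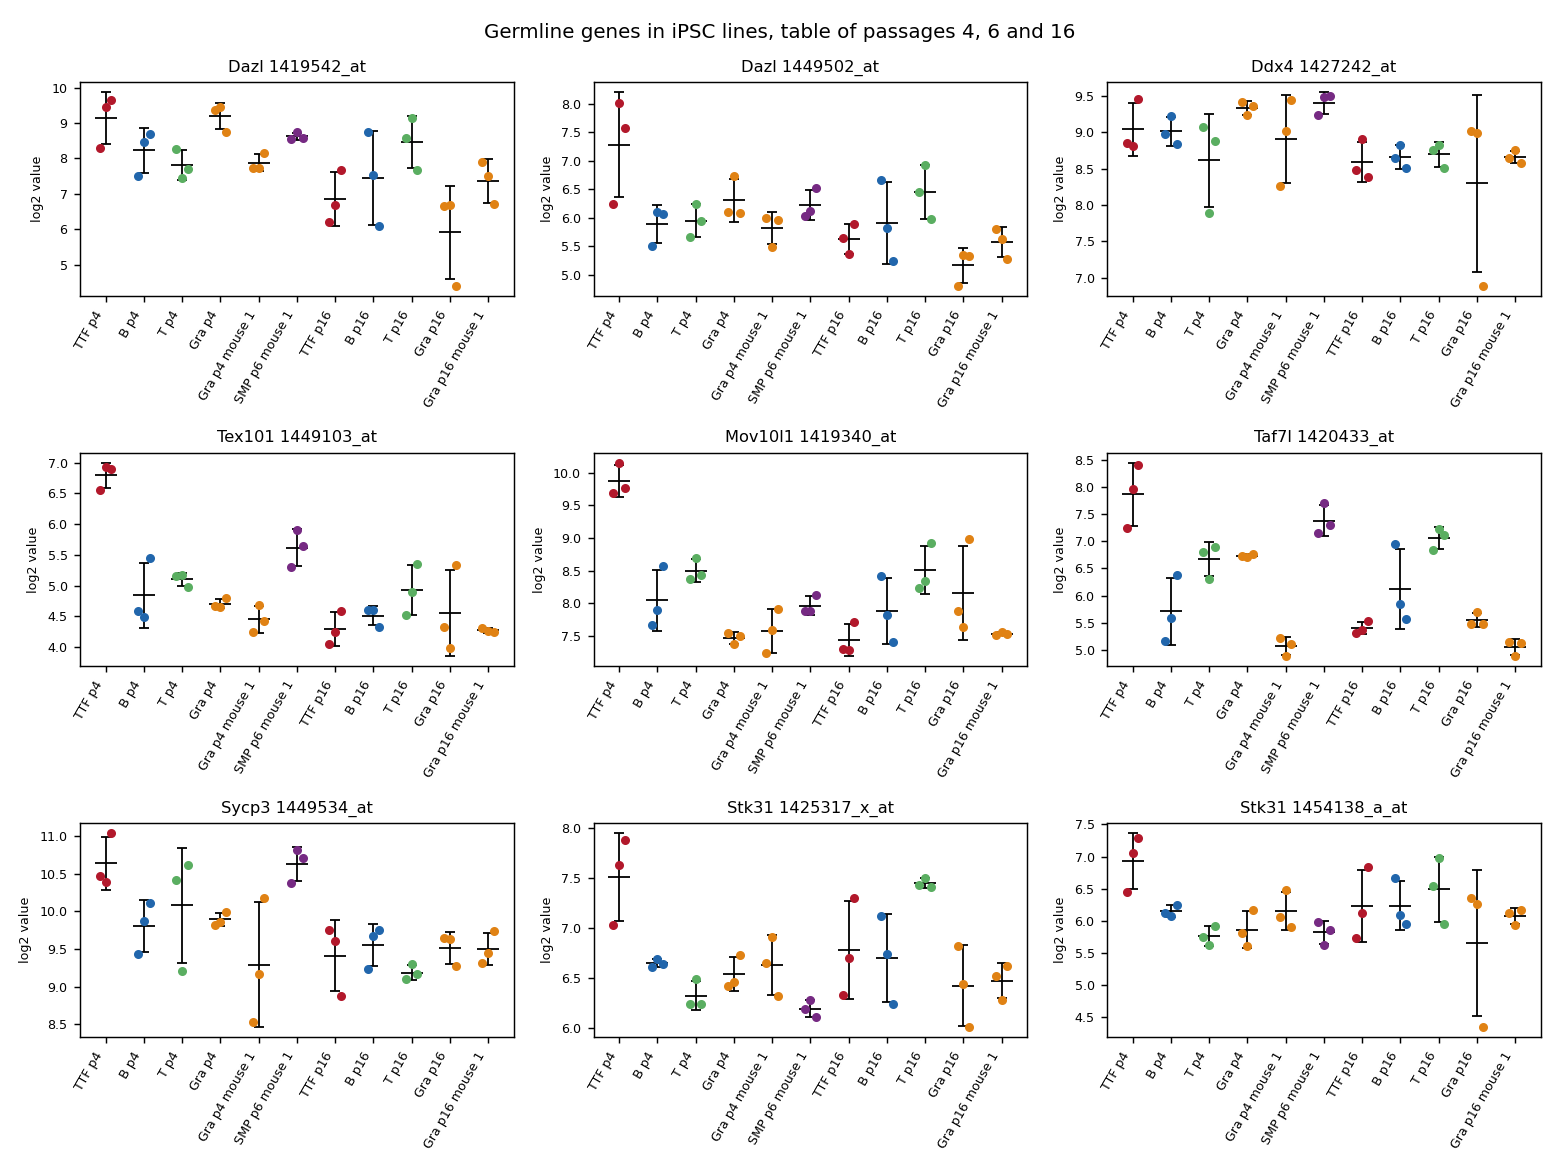
Log2 values of the 9 probe sets (vertical axes) in the 11 groups of the 33-array table (horizontal axes), with 1 point per clone and the mean and SD in black. TTF lines at passage 4 stand above all other groups for Tex101 and Mov10l1, and clone 3 of Gra at passage 16 lies lowest for Dazl 1419542_at and Ddx4.

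At passage 4 the germline genes were set apart mainly by the lines from tail tip fibroblasts. Tex101, Mov10l1, Taf7l, Stk31 and Dazl 1449502_at were all higher in TTF lines than in the mean of the other 3 origins, by 2.01-fold to 3.76-fold. No member was lower there. The brighter probe set of Dazl, 1419542_at, did not pass the test, and neither did Ddx4 and Sycp3. The moderated F-test of limma among the 4 origins called 6 of 9 probe sets, of 5 genes, at an adjusted p under 0.05, while it called 38.00% of all probe sets. Against the other origins, TTF lines had 6 of 9 probe sets higher, where 10.02% of all probe sets were called higher and 9.57% lower. The median difference of the 9 was 1.01, and that of all probe sets was 0.03.

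Tex101 encodes a glycoprotein held on the germ cell surface by a lipid anchor, needed for sperm to migrate in the oviduct. Its gene lies at chr7:24668012-24672050 (GRCm38.p6) and is read by 1449103_at. The 3 TTF clones at passage 4 had log2 values of 6.56, 6.93 and 6.89. B cell clones had 4.58, 4.49 and 5.45, T cell clones 5.16, 5.17 and 4.97, and granulocyte clones of mouse 2 had 4.67, 4.66 and 4.79. All TTF clones were above every clone of the other origins. The log2 difference was 1.91 ± 0.22 (SE), or 3.76-fold, with an adjusted p of 1.2e-06. Granulocyte lines were lower than the mean of the other origins by 0.87 ± 0.22 (adjusted p 0.0043). B cell lines were lower by 0.69 ± 0.22 (adjusted p 0.039), a call kept in 26 of 33 fits with 1 array left out. Without B cell clone 2 it had an adjusted p of 0.30.

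Mov10l1 is an RNA helicase that hands piRNA precursors, the sources of small RNAs that silence transposons in the germ line, to the processing machinery. It is at chr15:88982891-89055152 and is read by 1419340_at. TTF clones at passage 4 had 9.69, 10.16 and 9.77, the highest 3 of the 33 arrays. T cell clones followed with 8.36, 8.70 and 8.43, and B cell clones had 7.67, 7.89 and 8.57, so these overlapped. Granulocyte clones had 7.54, 7.37 and 7.50, below all other clones of mouse 2 in that comparison. TTF lines exceeded the mean of the others by 1.87 ± 0.23, or 3.66-fold (adjusted p 4.3e-06). Granulocyte lines lay 1.34 ± 0.23 below the mean of the others (adjusted p 0.00014).

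Taf7l, on the X chromosome at chrX:134460116-134476505, encodes a germ cell relative of a subunit of the general transcription factor TFIID. Its probe set is 1420433_at. Values at passage 4 were 7.24, 7.96 and 8.39 in TTF clones and 6.80, 6.31 and 6.90 in T cell clones. Granulocyte clones had 6.73, 6.71 and 6.77 and B cell clones 5.16, 5.59 and 6.38. TTF clones were again all highest, and among clones of mouse 2 only those from B cells included values under 6. The TTF difference was 1.49 ± 0.24, or 2.82-fold (adjusted p 9.2e-05). B cell lines were 1.38 ± 0.24 below the mean of the others, or 2.60-fold lower (adjusted p 0.00071). In those lines 6 of 12 visceral endoderm genes were higher and 0 lower, Cubn most, by 2.94 ± 0.53 (adjusted p 0.0010). The clone mean of that list was 6.06 to 6.92 in B cell lines and 5.07 to 5.92 over the other origins. Its part in the lower Taf7l and Tex101 was not tested.

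Stk31 encodes a kinase-like protein with a tudor domain that is expressed in the testis. The gene spans chr6:49395506-49469506. Its brighter probe set, 1425317_x_at, is of a kind that may also bind other transcripts. It read 7.03, 7.63 and 7.88 in TTF clones and 6.61, 6.69 and 6.64 in B cell clones. T cell clones had 6.24, 6.49 and 6.24, and granulocyte clones 6.41, 6.46 and 6.73. No clone of another origin reached the lowest TTF clone. TTF lines were higher by 1.01 ± 0.19 (adjusted p 0.00060), and T cell lines were lower by 0.58 ± 0.19 (adjusted p 0.037). The T cell call was kept in 26 of 33 fits with 1 array left out, and its adjusted p rose to 0.14 without T cell clone 3. The dimmer probe set, 1454138_a_at, gave a TTF difference of 1.00 ± 0.29 (adjusted p 0.017), which missed the threshold without TTF clone 2 (adjusted p 0.099) or clone 3 (0.096).

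Dazl, an RNA-binding protein that controls translation in germ cells, is on chr17:50279393-50293620. Its 2 probe sets differed. For 1419542_at the values were 8.30, 9.46 and 9.66 in TTF clones, and 9.38, 9.45 and 8.76 in granulocyte clones. B cell clones had 7.51, 8.46 and 8.70, and T cell clones 8.27, 7.45 and 7.70. TTF and granulocyte lines thus overlapped at the top, and the TTF difference of 0.73 ± 0.46 had an adjusted p of 0.30 (95% interval from -0.22 to 1.69). For 1449502_at, TTF clones had 6.25, 8.02 and 7.59, and the other clones of mouse 2 at passage 4 lay between 5.51 and 6.74. Here the difference was 1.24 ± 0.29 (adjusted p 0.0032). Without TTF clone 2 it was 0.87 (adjusted p 0.087).

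Ddx4, the RNA helicase of germ granules known as Vasa, is at chr13:112598333-112652633. At passage 4 its probe set 1427242_at read 8.85, 8.80 and 9.46 in TTF clones and 9.42, 9.23 and 9.36 in granulocyte clones. B cell clones had 8.97, 9.22 and 8.84, and T cell clones 9.08, 7.89 and 8.88. The origins overlapped, with an adjusted p of 0.43 from the F-test. The TTF difference was 0.05 ± 0.30, with a 95% interval from -0.57 to 0.67.

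Sycp3 is a structural protein of the synaptonemal complex, which pairs chromosomes in meiosis, and its gene is at chr10:88459587-88473236. TTF clones had 10.47, 10.39 and 11.04 at passage 4, and T cell clones 10.42, 9.21 and 10.61. B cell clones had 9.44, 9.87 and 10.12 and granulocyte clones 9.82, 9.86 and 9.99. Only T cell clones reached into the TTF range. The TTF difference of 0.71 ± 0.27 had an adjusted p of 0.060. It fell under the threshold (adjusted p 0.046) when the granulocyte array of passage 16 that stands apart was left out of the fit.

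**Figure D2:**
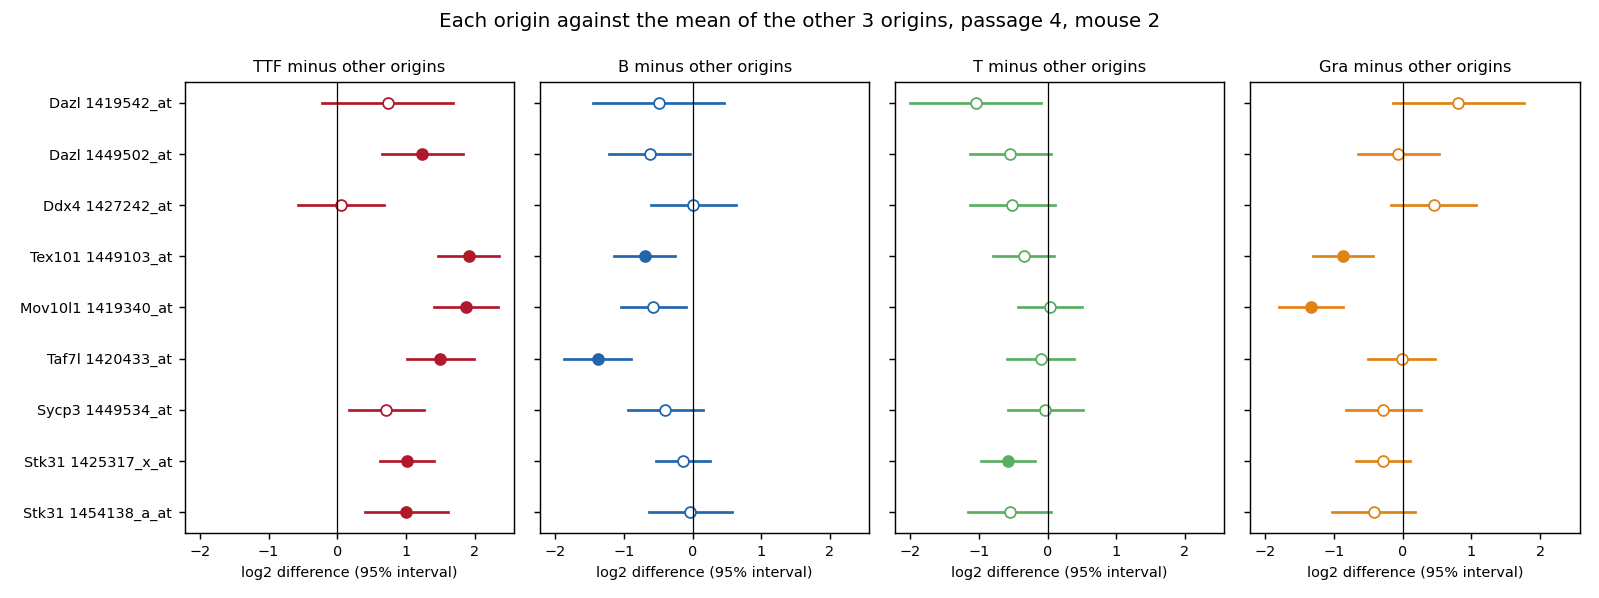
Log2 difference of each origin from the mean of the other 3 at passage 4 in mouse 2 (horizontal axes), for the 9 probe sets, with 95% intervals from limma and filled points where the adjusted p is under 0.05. In the TTF panel all 9 points lie above 0 and 6 are filled, and the other panels hold 5 filled points, all below 0.

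Set against single origins at passage 4, TTF lines had 5 of 9 probe sets higher than B cell lines (9.83% of all probe sets were). They had 6 higher than T cell lines (5.25% of all) and 6 higher than granulocyte lines (12.8% of all). The widest of these gaps was that of Mov10l1 over granulocyte lines, 2.41 ± 0.28, or 5.30-fold (adjusted p 1.5e-06). The narrowest called was that of Stk31 1425317_x_at over B cell lines, 0.86 ± 0.24 (adjusted p 0.011). B cell lines had 2 of 9 lower than the mean of the others, where 5.20% of all probe sets were lower. T cell lines had 1 of 9 lower (7.11% of all), and granulocyte lines 2 of 9 (11.8% of all). Each of these means of the others includes the TTF lines. Every pair without TTF lines had 1 of 9 called. Taf7l was lower in B cell than in T cell lines (1959 of all 22626 probe sets were) and than in granulocyte lines (734 were). Mov10l1 was higher in T cell than in granulocyte lines (3147 were). Without the array that stands apart, Dazl 1419542_at (adjusted p 0.031) and Ddx4 (adjusted p 0.027) were also called lower in T cell than in granulocyte lines. In that fit 3519 of all probe sets were lower. These comparisons share arrays with each other.

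Lists of other genes were read in the same contrast. Fibroblast and feeder genes, collagens among them, bear on leftover feeders or fibroblasts: 0 of 19 were higher in TTF lines at passage 4 and 6 were lower. Their mean level was 7.08 to 7.24 in the TTF clones, overlapping B cell clones (7.13 to 7.25) and below T cell clones (7.93 to 8.12). Lox, which cross-links collagen, was 2.49 ± 0.36 below the other origins (adjusted p 3.2e-05). Among germline gene silencers, 6 of 19 were lower in TTF lines and 0 higher. Dnmt3l, the cofactor of the DNA methyltransferases, fell furthest below the others, by 1.60 ± 0.21 or 3.03-fold (adjusted p 8.1e-06). The other 5 were Mga, Dnmt3a, Setdb1, Yaf2 and Uhrf1. E2f6 did not pass. Of 8 muscle precursor genes, 3 were higher in TTF lines and 0 lower, the largest difference being 0.89 ± 0.16 for Des (adjusted p 0.00044). The part of these genes in the germline values was not tested.

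Other germline lists were read in TTF lines at passage 4 too. Of 16 meiotic chromosome genes measured, 6 were higher and 0 lower. Tex15, needed for meiotic recombination and transposon silencing, led with 1.39 ± 0.28 (adjusted p 0.00097), and Stra8, Smc1b, Rec8, Tex12 and Msh4 were the others. In the list of piRNA pathway and germ granule genes 1 of 8 was higher, Mybl1, the transcription factor that drives piRNA genes (0.68 ± 0.18, adjusted p 0.0076). Without the granulocyte array that stands apart 4 of these 8 were higher. Of 9 primordial germ cell specification genes 3 were lower and 0 higher. Lin28a had the widest gap, 2.38 ± 0.39 below the others (adjusted p 0.00011). Spermatid genes gave 0 of 11 in either direction with limma. Spermatogonial genes gave 1 of 6 higher, Tex19.1 (0.75 ± 0.21, adjusted p 0.012), and oocyte genes 2 of 9, Figla most (1.00 ± 0.26, adjusted p 0.0084). The median of the meiotic list was 0.49, and that of all probe sets 0.03.

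Granulocyte lines showed another picture at passage 4, against a mean of the other origins that includes the TTF lines. Of the genes named next, Smc1b, Rec8 and Msh4 were called higher in TTF lines, and Dnmt3l and Lin28a lower. The part of the TTF lines in these differences was not tested. Of the 16 meiotic genes, 7 were lower and 0 higher, with Smc1b, the meiotic cohesin subunit, 1.53 ± 0.28 below the other origins (adjusted p 0.00029). Rec8, Msh5, Dmc1, Stag3, Msh4 and Syce2 were the other 6. In the same lines Dnmt3l was 1.24 ± 0.21 higher (adjusted p 0.00011) and Lin28a 1.28 ± 0.39 higher (adjusted p 0.018). The whole lists of these genes did not stand highest there. The silencer mean was 9.65 in granulocyte, 9.70 in B cell, 9.52 in T cell and 9.34 in TTF lines. For primordial germ cell specification genes these means were 9.46, 9.71, 9.51 and 8.98. Of 6 spermatogonial genes 2 were lower, Dmrt1 most, by 1.80 ± 0.21 (adjusted p 1.7e-06).

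From passage 4 to 16, members of mouse 2 fell mainly in TTF lines, and Dazl and Taf7l also in granulocyte lines. The median change of the 9 probe sets was -1.65 in TTF and -0.38 in granulocyte lines. It was -0.16 in B cell and 0.39 in T cell lines. Medians of all probe sets in these contrasts lay from -0.01 to 0.16. TTF lines had the largest falls of Tex101, Mov10l1, Taf7l and Sycp3, and granulocyte lines that of Dazl 1419542_at. Averaged over the 4 origins, 6 of 9 probe sets, of 5 genes, were lower at passage 16, where 14.4% of all probe sets were called lower. Dazl 1419542_at fell by 1.42 ± 0.28 (adjusted p 0.00057), Tex101 by 0.79 ± 0.13 (9.4e-05), Taf7l by 0.71 ± 0.15 (0.00068) and Sycp3 by 0.69 ± 0.16 (0.0025). Dazl 1449502_at and Mov10l1 fell by 0.57 and 0.48. These averages mix unlike origins: Mov10l1 changed by -2.45 in TTF, -0.16 in B cell and 0.01 in T cell lines. Its granulocyte mean went from 7.47 to 8.16. The change differed between origins for 6 of 9 probe sets, of 5 genes, in the interaction F-test, which called 31.6% of all probe sets.

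**Figure D3:**
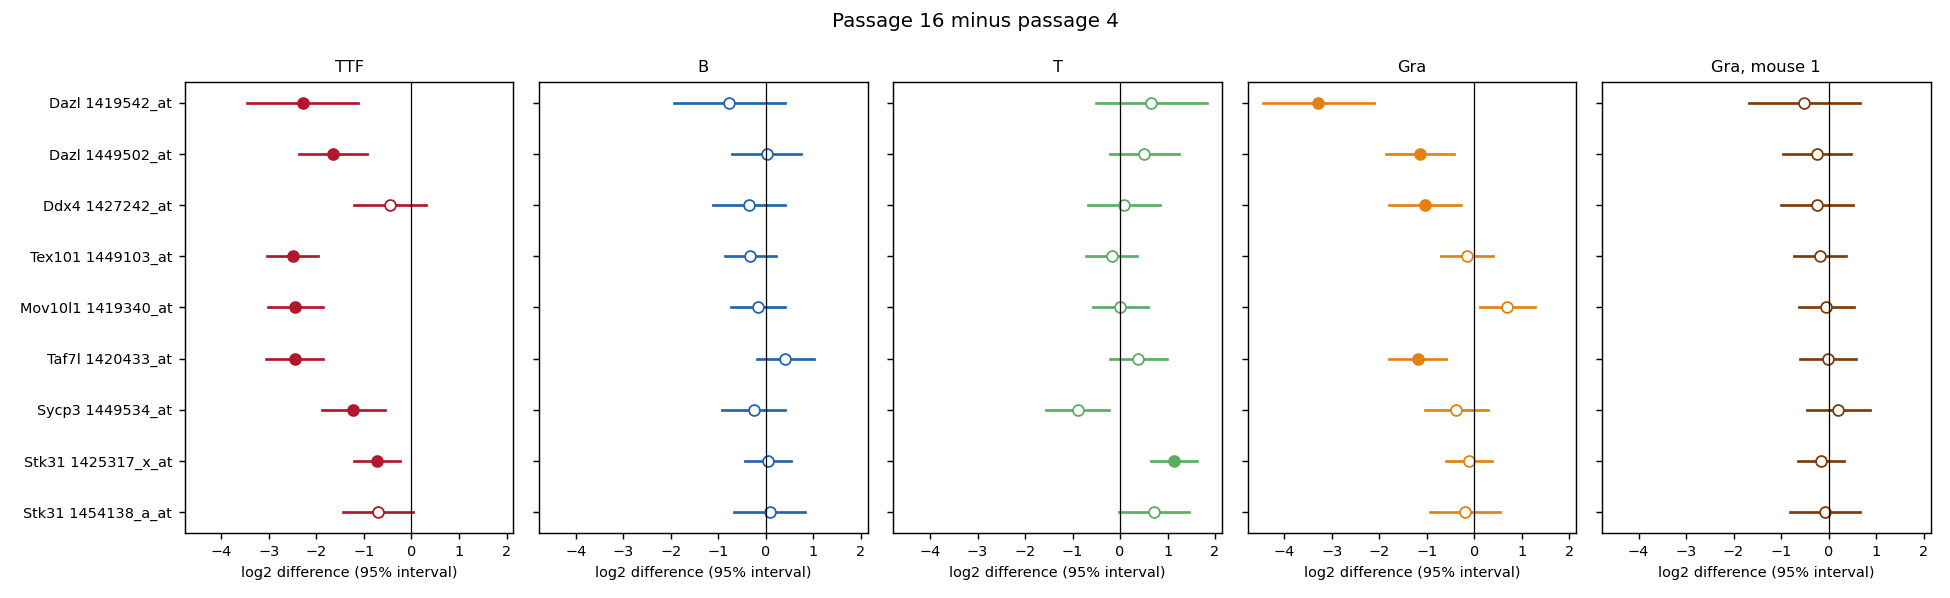
Log2 change from passage 4 to passage 16 (horizontal axes) for the 9 probe sets in each origin of mouse 2 and in granulocyte lines of mouse 1, with 95% intervals from limma and filled points where the adjusted p is under 0.05. TTF lines have 7 filled points, all below 0, and B cell lines and granulocyte lines of mouse 1 have 0.

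In TTF lines, 7 of 9 probe sets, of 6 genes, were lower at passage 16, and 0 were higher, where 5.47% of all probe sets were lower and 4.83% higher. The median change of the 9 was -1.65, and that of all probe sets -0.01. The TTF arrays of passage 4 used here also gave the TTF difference at passage 4, so these results are not independent. Tex101 was at 4.05, 4.24 and 4.59 in the 3 TTF clones at passage 16, all below the lowest passage 4 clone at 6.56. The fall of 2.50 ± 0.26, or 5.66-fold, had an adjusted p of 8.4e-07. At passage 16 the TTF mean of Tex101, 4.29, was under the 25th percentile of the table.

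Mov10l1 read 7.29, 7.27 and 7.71 in TTF clones at passage 16, a fall of 2.45 ± 0.28 or 5.46-fold (adjusted p 2.5e-06). Taf7l read 5.32, 5.37 and 5.53, a fall of 2.46 ± 0.29 or 5.50-fold (adjusted p 4.2e-06). For Mov10l1 and Taf7l the TTF clones of the passages did not overlap, and TTF lines went from the highest mean of the 4 origins to the lowest. Dazl 1419542_at read 6.20, 6.68 and 7.68 and fell by 2.29 ± 0.57 (adjusted p 0.0096). Without TTF clone 1 of passage 16 that value was 1.96 (adjusted p 0.060). Dazl 1449502_at read 5.64, 5.36 and 5.89, also without overlap, and fell by 1.65 ± 0.35 (adjusted p 0.0026). Both Dazl probe sets therefore fell in these lines.

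Sycp3 had 9.75, 9.60 and 8.88 in TTF clones at passage 16 and fell by 1.22 ± 0.32 (adjusted p 0.015). The call was lost without TTF clone 3 of passage 4 (adjusted p 0.077) or of passage 16 (0.10). Stk31 1425317_x_at had 6.33, 6.70 and 7.30 and overlapped its passage 4 values. Its change of 0.74 ± 0.24 downwards (adjusted p 0.045) was kept in 14 of 33 fits with 1 array left out. Ddx4 had 8.48, 8.91 and 8.39, and its change of -0.45 ± 0.37 had an adjusted p of 0.54.

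The silencer list moved the other way in the same lines: 6 of 19 were higher at passage 16 and 0 lower. Dnmt3l rose by 2.05 ± 0.25, or 4.13-fold (adjusted p 8.0e-06), from 8.97 ± 0.73 to 11.02 ± 0.14 (SD, n = 3). Dnmt3a rose by 1.74 ± 0.35, and Dnmt3b, Uhrf1, Kdm5c and Dnmt1 also rose. Meiotic genes other than the members gave 2 of 16 lower, Tex15 and Tex12, and 1 higher, Syce2. Mybl1 fell by 1.31 ± 0.22 (adjusted p 0.00022). Of the fibroblast and feeder genes, 8 of 19 were higher at passage 16 and 1 was lower, with a clone mean of 7.69 to 7.91 against 7.08 to 7.24 at passage 4. Postn rose most, by 2.02 ± 0.29 (adjusted p 3.8e-05). Muscle precursor genes had 3 of 8 lower and 0 higher: Des fell by 1.58 ± 0.20 (adjusted p 1.2e-05), and Myog and Myf5 were the others. How far any of these lists bears on the fall of the germline genes was not tested.

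In granulocyte lines of mouse 2, Dazl and Taf7l fell. These lines had 4 of 9 probe sets lower at passage 16, of 3 genes, where 16.3% of all probe sets were lower. Without the array that stands apart 3 of 9 were lower, and 2094 of all probe sets in place of 3685. Dazl 1419542_at went to 6.65, 6.68 and 4.40, from clones that all lay above 8.7, a fall of 3.29 ± 0.57 or 9.76-fold (adjusted p 0.00016). Clone 3, the array that stands apart, is the lowest of these, and without it the fall was 2.53 ± 0.55 (adjusted p 0.0021). Dazl 1449502_at had 4.80, 5.35 and 5.34 and fell by 1.15 ± 0.35 (adjusted p 0.014), or by 1.23 without clone 3 (adjusted p 0.028). It missed the threshold without clone 2 of passage 4 (adjusted p 0.082).

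Taf7l in these lines had 5.48, 5.69 and 5.48, a fall of 1.19 ± 0.29 (adjusted p 0.0032) from 3 clones near 6.7. It was as large, 1.15 ± 0.33, without the array that stands apart (adjusted p 0.014). Ddx4 had 9.01, 8.99 and 6.89, and its fall of 1.04 ± 0.37 (adjusted p 0.032) was 0.34 ± 0.28 without that array (adjusted p 0.46). It rests on clone 3. Mov10l1 was at 7.87, 7.63 and 8.98, where clone 3 was the highest. Its change of 0.69 ± 0.28 (adjusted p 0.057) was 0.28 ± 0.26 without clone 3 (adjusted p 0.51). Of all 22626 probe sets, 4140 were higher and 3685 lower in these lines at passage 16, or 2339 and 2094 without the array that stands apart. Other meiotic genes gave 6 of 16 higher and 3 lower in these lines: Smc1b rose by 2.12 ± 0.34 (adjusted p 9.0e-05) and Tex15 fell by 1.94 ± 0.34 (adjusted p 0.00018). Without the array that stands apart the meiotic counts were 4 and 2, with Smc1b at 2.06 and Tex15 at -1.34. In these lines 8 of 14 pluripotency genes were lower at passage 16 and 0 higher, and 5 of 12 visceral endoderm genes were higher and 0 lower. These counts were 4 of 14 and 3 of 12 without that array. The mean level of the pluripotency genes was 10.29 to 10.94 in the passage 16 clones and 11.28 to 11.30 at passage 4. That of the visceral endoderm genes was 5.75 to 6.68 at passage 16 and 5.07 to 5.16 at passage 4. The part of these genes in the change of the members was not tested.

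T cell lines had 1 of 9 probe sets higher at passage 16, where 7.07% of all probe sets were higher. They had 0 lower, where 2176 of all 22626 were. Stk31 1425317_x_at went from 6.24, 6.49 and 6.24 to 7.43, 7.50 and 7.41, with no overlap. That rise of 1.13 ± 0.24, or 2.18-fold, had an adjusted p of 0.0015. Without the granulocyte array that stands apart, Stk31 1454138_a_at was also called higher (0.72, adjusted p 0.039) and Sycp3 lower, with a fall of 0.89 (adjusted p 0.044). B cell lines had 0 of 9 called in either direction by limma, where 3.995% of all probe sets were called lower and 1132 of 22626 higher. With such shares a 0 among 9 is no result about the members. At an unadjusted p under 0.05 there were 0 of the 9 and 5183 of all probe sets. Their Dazl 1419542_at values spread widely at passage 16, at 8.75, 7.52 and 6.09. The interaction test had adjusted p-values of 1.6e-05 for Mov10l1, 2.0e-05 for Taf7l and 6.4e-05 for Tex101. It gave 0.0012 for Stk31 1425317_x_at, 0.0025 for Dazl 1419542_at and 0.0043 for Dazl 1449502_at. Ddx4 had 0.33 and Sycp3 0.25.

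By passage 16 T cell lines held the highest means of Dazl and Taf7l. The F-test among origins called 1 of 9 probe sets, Taf7l (adjusted p 0.011), and 1.35% of all probe sets. T cell lines had 3 of 9 higher than the mean of the others, where 0.707% of all were. Taf7l read 6.83, 7.22 and 7.11 in T cell clones and 6.95, 5.84 and 5.56 in B cell clones. One B cell clone thus lay within the T cell range, and TTF and granulocyte clones were all under 5.7. The T cell difference was 1.36 ± 0.24 (adjusted p 0.0024).

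Stk31 1425317_x_at was 0.82 ± 0.19 higher in T cell lines (adjusted p 0.021), a call lost without any 1 of the 3 T cell clones (adjusted p 0.074 to 0.089). The dimmer Stk31 probe set, 1454138_a_at, was not called. Its T cell clones had 6.54, 6.97 and 5.96 and overlapped B cell clones at 6.67, 6.09 and 5.94. With the probe sets of the gene averaged, the limma call was also lost (adjusted p 0.15). Dazl 1419542_at read 8.59, 9.14 and 7.67 in T cell clones, 1.73 ± 0.46 above the others (adjusted p 0.046). That was kept in 11 of 33 fits with 1 array left out. With the array that stands apart removed, 5 of 9 were higher in T cell lines, Mov10l1 (0.82, adjusted p 0.012) and Tex101 (0.60, adjusted p 0.039) being added, and 708 of all 22626 probe sets were. The fibroblast and feeder list had 5 of 19 lower in T cell lines (8 without that array) and 0 higher, with a clone mean of 7.01 to 7.31. In the other origins of mouse 2 at passage 16 that mean was 7.55 to 8.01, and its part in the result was not tested.

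Granulocyte lines had 1 of 9 lower than the mean of the others at passage 16, Dazl 1419542_at, where 0.959% of all were lower. The difference of 1.68 ± 0.46 downwards (adjusted p 0.0495) was 0.93 ± 0.47 without the array that stands apart (adjusted p 0.73). T cell lines had 4 of 9 higher than granulocyte lines, where 1.41% of all were. Without that array 209 of all probe sets in place of 320 were, and 1 of the 9, Taf7l, at 1.47 ± 0.33 (adjusted p 0.016), and both Dazl probe sets and Stk31 missed the threshold (adjusted p 0.059 to 0.079). TTF and B cell lines had 0 called members against the mean of the others at passage 16, with 2 and 0 at an unadjusted p under 0.05. In both contrasts limma called 0% of all probe sets, with 1564 and 1433 at an unadjusted p under 0.05, so these counts say nothing about the members.

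In mouse 1, muscle precursor lines had more Taf7l, Sycp3 and Tex101 than granulocyte lines. Passage differs along with origin in these comparisons. Granulocyte lines at passage 4 had 3 of 9 probe sets lower than SMP lines at passage 6, where 10.1% of all were lower. At passage 16 the same 3 were lower, where 6.10% of all were. Taf7l read 7.15, 7.70 and 7.29 in SMP clones, and 5.21, 4.88 and 5.12 in granulocyte clones at passage 4. It was 5.15, 4.90 and 5.13 at passage 16. The gap was 2.31 ± 0.29 at passage 4 (4.96-fold, adjusted p 3.1e-06) and 2.32 ± 0.29 at passage 16 (adjusted p 8.4e-06). These granulocyte values had the lowest means of Taf7l among the 11 groups.

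Tex101 was 5.30, 5.90 and 5.65 in SMP clones. Outside the TTF lines of passage 4, only single clones of B cell lines at passage 4 and of T cell and granulocyte lines at passage 16 passed the lowest of these. Tex101 was 4.24, 4.68 and 4.42 in granulocyte clones at passage 4. The gap was 1.17 ± 0.26 (adjusted p 0.0020), and 1.35 ± 0.26 at passage 16 (adjusted p 0.0011). Sycp3 was 10.37, 10.81 and 10.70 in SMP clones. In granulocyte clones it was 8.53, 9.17 and 10.17 at passage 4 and 9.31, 9.45 and 9.74 at passage 16. Its gap of 1.34 ± 0.32 at passage 4 (adjusted p 0.0037) was 0.96 without granulocyte clone 1 (adjusted p 0.055). That of 1.13 at passage 16 was kept in 29 of 33 fits with 1 array left out, with adjusted p-values up to 0.096 without SMP clone 2.

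SMP lines also had more Mybl1, by 2.03 ± 0.22 (adjusted p 3.7e-07), and 4 of 16 meiotic genes (7 without the array that stands apart) were lower in granulocyte lines at passage 4, Tex12 by 1.53 ± 0.30 (adjusted p 0.00051). Dnmt3b was 1.38 ± 0.33 higher in the granulocyte lines (adjusted p 0.0035). Fibroblast and feeder genes had 9 of 19 lower and 0 higher in those lines, with a clone mean of 7.96 to 8.17 in SMP lines and 7.13 to 7.74 in granulocyte lines. Visceral endoderm genes had 4 of 12 higher in the granulocyte lines and 0 lower. Their part in the gap was not tested.

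The fall of Dazl and Taf7l with passage was not called in granulocyte lines of mouse 1. There 0 of 9 probe sets were called by limma, where 0.323% of all probe sets were called lower and 128 of 22626 higher. With so few called, that 0 says nothing about the members. At an unadjusted p under 0.05 there were 0 of the 9 and 2484 of all probe sets. Dazl 1419542_at was 7.74, 7.74 and 8.15 at passage 4 and 7.89, 7.49 and 6.70 at passage 16, a change of -0.51 ± 0.57 with a 95% interval from -1.68 to 0.66. Taf7l was already low at passage 4: its mean of 5.07 was 1.67 ± 0.29 below that of granulocyte lines of mouse 2 (adjusted p 0.00086). It was the 1 of 9 probe sets called lower between the mice at passage 4, where 2.81% of all were. In the direct limma test of the passage changes of the mice 0 of 9 differed, with 2 at an unadjusted p under 0.05. Of all probe sets 1.25% differed one way and 1.59% the other, so a 0 among 9 is no result about the members. There is 1 mouse on each side, so animal and set of clones cannot be told apart.

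**Figure D4:**
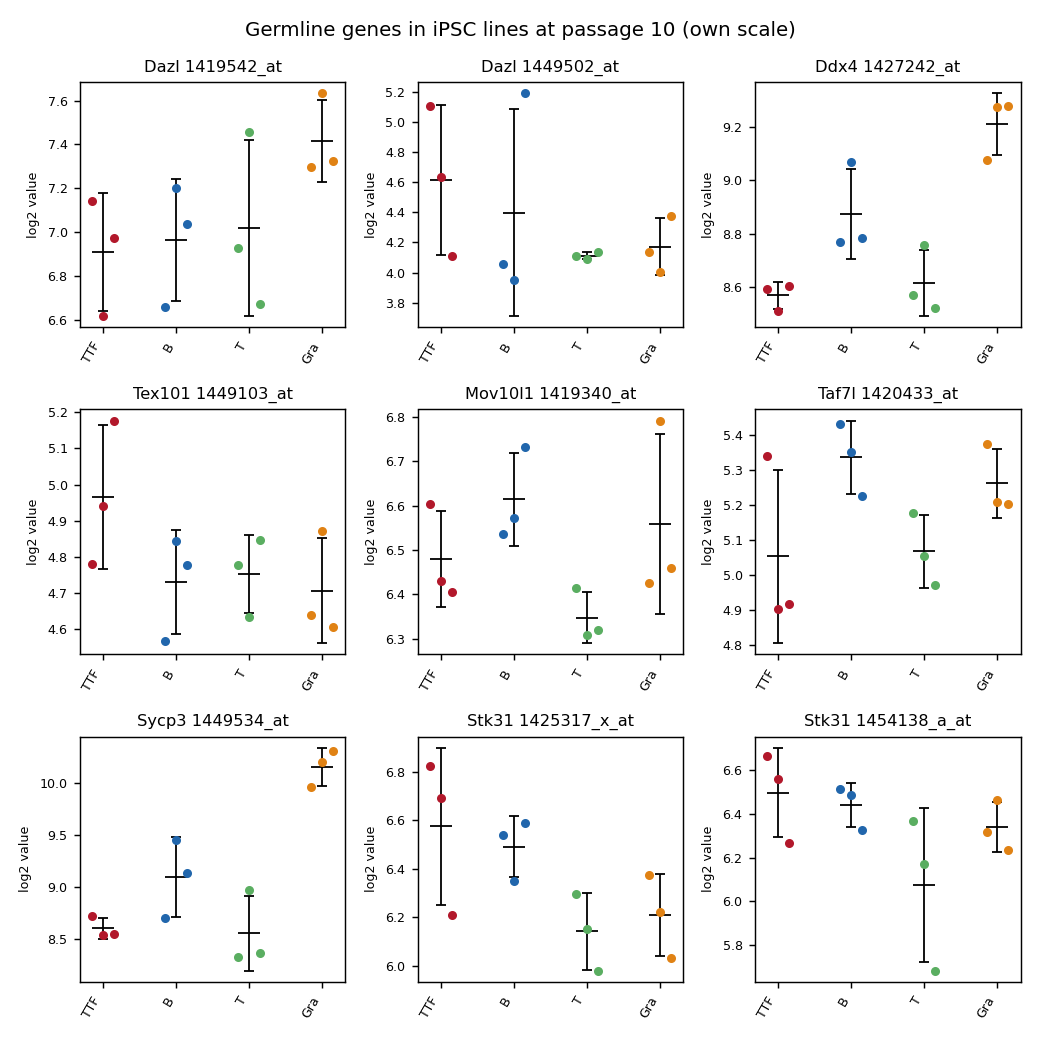
Log2 values of the 9 probe sets (vertical axes) in the 4 origins of mouse 2 at passage 10 (horizontal axes), with 1 point per clone and the mean and SD in black, on the scale of the passage 10 table. Granulocyte clones are the highest for Sycp3 and Ddx4, and TTF clones overlap clones of other origins for Tex101, Mov10l1 and Taf7l.

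At passage 10, in its own table and scale, Sycp3 and Ddx4 were the members that differed between origins, and both were highest in granulocyte lines. The F-test called 2 of 9 probe sets, where 25.7% of all were called, and granulocyte lines had these 2 higher than the mean of the others, where 16.6% of all were higher. These shares are near those of all probe sets, and the values of each gene follow. Sycp3 was 9.95, 10.20 and 10.31 in granulocyte clones and 8.72, 8.54 and 8.54 in TTF clones. B cell clones had 8.70, 9.45 and 9.13, and T cell clones 8.33, 8.96 and 8.37. All granulocyte clones were above all others, by 1.40 ± 0.16 in the mean, or 2.65-fold (adjusted p 0.00011).

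Ddx4 was 9.08, 9.27 and 9.28 in granulocyte clones, and 8.77, 9.07 and 8.79 in B cell clones. TTF clones had 8.59, 8.51 and 8.61, and T cell clones 8.57, 8.76 and 8.52. The granulocyte lines were 0.52 ± 0.08 higher (adjusted p 0.00046), and their lowest clone was just above the highest B cell clone. TTF lines had both genes lower than the mean of the others, Sycp3 by 0.67 ± 0.16 and Ddx4 by 0.33 ± 0.08 (adjusted p 0.026 for each), where 5.97% of all were lower. The Sycp3 call was lost without any 1 of the TTF clones (adjusted p 0.060 to 0.12), and that of Ddx4 without clone 1 (0.084) or clone 2 (0.13).

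The genes that led in TTF lines at passage 4 were close together at passage 10. Tex101 group means lay between 4.71 and 4.97, Mov10l1 between 6.35 and 6.61 and Taf7l between 5.05 and 5.34, with adjusted p-values of 0.28, 0.21 and 0.17 in the F-test. The 95% interval of the TTF difference was 0.03 to 0.44 for Tex101, -0.21 to 0.15 for Mov10l1 and -0.37 to 0.04 for Taf7l. Both Stk31 probe sets and both of Dazl also missed the threshold. Dazl 1449502_at was dim in that table, brighter than 17.2% of probe sets.

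Of 18 meiotic genes measured at passage 10, 6 were higher in granulocyte lines and 0 lower, led by Smc1b at 1.33 ± 0.13 (adjusted p 5.4e-05). Rec8, Stag3, Dmc1, Syce2 and Msh5 were the others. Of all 22626 probe sets, 3757 were higher and 3442 lower in this contrast. Silencers had 6 of 20 lower and 1 higher: Dnmt3a was 0.83 ± 0.10 lower (adjusted p 0.00016), and Dnmt3b, E2f6, Trim28, Dnmt3l and Pcgf6 were also lower, while Dnmt1 was higher. Fibroblast and feeder genes had 16 of 20 lower and 0 higher in granulocyte lines. Their clone means were 8.04 to 8.08 there, 8.36 to 8.83 in T cell and B cell lines and 9.09 to 9.20 in TTF lines. The part of these cells in the result was not tested.

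**Figure D5:**
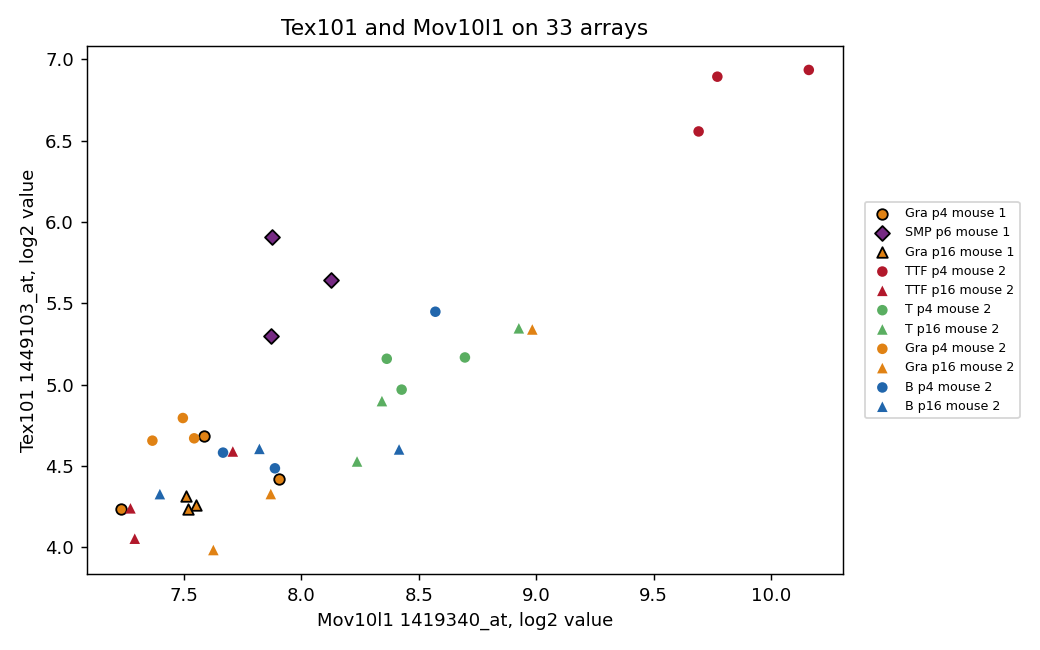
Tex101 1449103_at (vertical axis) against Mov10l1 1419340_at (horizontal axis), both log2 values, with 1 point for each of the 33 arrays, coloured by origin and shaped by passage; black outlines mark mouse 1. The 3 TTF clones of passage 4 lie at the upper right, and SMP clones lie above the other arrays of like Mov10l1 level.

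Members varied together to different degrees across the 33 arrays, which share groups, mouse and normalization. Pearson's r between leading probe sets was positive in 19 of 21 pairs of genes, with a median of 0.43. Tex101 and Mov10l1 had the highest, 0.86, followed by Tex101 and Taf7l with 0.79. Ddx4 with Mov10l1 and Sycp3 with Stk31 each had -0.14. The probe sets of Stk31 had r of 0.82 and those of Dazl 0.77. At passage 10, over 12 arrays, Ddx4 and Sycp3 had 0.97, Tex101 and Mov10l1 0.03, and the probe sets of Dazl -0.15.

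The probe set most like Tex101 over the 33 arrays was that of 1300017J02Rik (r 0.90), which was also the one most like Mov10l1 (0.91). Sct and Ddit4l came next for Tex101, and Eng and Atp9a for Mov10l1. Ddx4 was most like H3f3b (0.92), Rcor1 (0.92) and Rnf6 (0.88), and Dazl most like Perp (0.87), Pole4 and Fbxw7. For Taf7l they were Pdcd6ip (0.84), Fcgbp and Sdc4. Sycp3 had Car13 (0.84), Spc25 and Gyg, and Stk31 had Nxn (0.81), Slc25a20 and Ttc28. None of these is a member.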

How the data were processed

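The authors deposited log2 probe set values as 2 tables, made with RMA per the submitters' processing notes; its version and the annotation are not given in the sources used here. Of 22690 probe sets, 64 controls were left out. Genes were named from GEO's platform annotation, which pairs 18003 probe sets of the 33-array table, and 20380 of passage 10, with 1 symbol. Each table was fitted alone with limma 3.58.1 (R 4.3.3), with 1 mean per group and moderated spread, tested two-sided and adjusted by Benjamini-Hochberg over 22626 probe sets. Called means an adjusted p under 0.05, all adjusted p-values are from these fits, and ± is the SE unless marked SD. Nothing was filtered for brightness. The number of arrays limits the precision. Fits were tested on simulated data. The members and gene lists were chosen with earlier results of these data known. Named are all member probe sets, the 3 probe sets most like each, and, from the lists described, called genes of largest change; other list genes were named after their values were seen. Clone numbers were not taken as pairs: deviations of same-numbered clones at passages 4 and 16 correlated at a median r of 0.15 (-0.35 to 0.38), over 0.1 in 8 of 15 lines. Between different origins, same-numbered clones had a median r of 0.04 at passage 4, over 0.1 in 3 of 18 pairs. At passage 16 it was 0.22, over 0.1 in 14 of 18 pairs, so clones numbered alike may share some variation there. Its source was not tested, and the main fits took clones as independent. Positions and promoters are from RefSeq.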

Additional observations from a re-analysis of the deposited data

Results flagged for a closer look

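For 6 probe sets the change from passage 4 to 16 differed between the 4 origins of mouse 2, by the interaction F-test of limma. This test shares the TTF arrays of passage 4 with the TTF difference at passage 4 and with the TTF fall. Mov10l1 had an adjusted p of 1.63e-05, with a fall of 2.45 in TTF lines and a difference of 0.69 in granulocyte lines that was not called. For Taf7l (adjusted p 2.04e-05) TTF lines fell by 2.46 and granulocyte lines by 1.19, and T cell lines differed by 0.39, not called. Tex101 (6.38e-05) fell by 2.50 in TTF lines and differed by -0.33 in B cell, -0.17 in T cell and -0.16 in granulocyte lines, none of them called. For Dazl the adjusted p was 0.00247 (1419542_at) and 0.00429 (1449502_at), with falls in TTF and granulocyte lines. Stk31 1425317_x_at (0.00122) rose by 1.13 in T cell lines and fell by 0.74 in TTF lines. Groups of 3 are too small for a test of single outlying clones.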

How the results depend on the processing

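Counts are genes with a called probe set. Origins at passage 4 gave 5 genes, passage 5, passage by origin 5, mouse 1 granulocyte against muscle precursor lines 3, granulocyte lines of the mice 1, passage 16 origins 1 and passage 10 origins 2. Quantile normalization, cyclic loess and averaging the probe sets per gene each gave 2 at passage 16. Without probe sets under the median, which drops dim members from the test, the counts were 2 at passage 4, 0 at passage 16, 3 for passage, 3 for passage by origin, 1 in mouse 1 and 0 between the mice. Array weights gave 4 at passage 16, 7 in mouse 1 and 4 between the mice. Fitting only the groups compared gave 0 at passage 16 and 2 between the mice. The replicate block took same-numbered clones as paired lines in the passage contrasts. In all other contrasts it was a clone number effect shared by all groups. The block gave 4 at passage 10 and left the other counts of genes as they were. With it the fall of Stk31 1425317_x_at in TTF lines (-0.74) missed the threshold (adjusted p 0.059), as it did with averaging its probe sets, an intensity trend, array weights and fitting only the groups compared (adjusted p 0.054 to 0.22). Leaving out 1 array at a time gave 0 to 4 genes at passage 16 and 4 to 6 at passage 4. The causes were not tested beyond the dropped members. Of 65 single values called in the contrasts checked, 0 reversed, 45 kept their call in every setting that tested them and 39 with every array left out. A setting that dropped a probe set was not counted for it. Of the pairs of origins, only those with TTF lines at passage 4 and T cell against granulocyte lines at passage 16 were checked. The files give no signal over background, so dim members such as Tex101 may be near the floor of the scale.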
